A study of Mus musculus with 5 samples.

Results

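The transforming growth factor beta (TGF-beta), bone morphogenetic protein (BMP) and activin pathway was followed through 42 genes, chosen by symbol for their roles as ligands, receptors, Smads, antagonists and binding proteins. These genes and the further lists below were chosen with earlier results of these data known. Shares within them, set beside all tested genes, are therefore descriptions and not tests. All 42 were found among the 51912 genes listed, and 38 of them were among the 18590 genes with enough reads to be tested. RNA came from the dorsolateral prostate of male mice aged 3 months, 1 library per sample. The 2 libraries labelled Ghr deletion carried floxed growth hormone receptor alleles with 1 copy of a Cre-ERT2 transgene (Ghrflox/flox;ROSA26Cre-ERT2+/0), and the 3 control libraries carried the floxed alleles alone (Ghrflox/flox). Both groups were given 250 mg/kg tamoxifen each day for 5 days, and the prostate was collected 1 month after dosing ended. ROSA26 is a broadly active locus, so Cre-ERT2, a recombinase that tamoxifen switches on, is not limited to prostate cells and the deletion can reach other organs. The labels call the samples biological replicates.

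Ligands of this family are secreted as dimers, and TGF-beta itself is held in the matrix in a latent complex until integrins or proteases release it. An active ligand joins type II and type I receptors, which phosphorylate receptor Smads. Smad2 and Smad3 carry TGF-beta and activin signals, Smad1, Smad5 and Smad9 carry BMP signals, and both sets enter the nucleus with Smad4. Smad6 and Smad7 are inhibitory Smads that are themselves induced by the pathway, which makes them common readouts of it. Id genes are induced by BMP and are a common readout of that branch. In the prostate, TGF-beta from the stroma is known to restrain epithelial growth.

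Values are CPM, a gene's share of the reads of its library, on a library size scaled by TMM, a method that sets the bulk of genes equal between libraries. Fold changes are libraries labelled Ghr deletion over control. The total count was 31740687 and 32782683 in the libraries labelled Ghr deletion, against 19517831, 29705618 and 41553558 in controls 1 to 3. Ghr itself had 21.5 and 10.2 CPM in libraries labelled Ghr deletion, against 10.1, 11.8 and 13.2 CPM in controls, so the count over the whole gene was not lower under the deletion label. Such a count does not single out the floxed part of the gene. Igf1, a growth hormone target, had 89.8 and 43.8 CPM against 61.2, 20.7 and 58.9 CPM. Controls differed among themselves in tissue markers. Svs1, a seminal vesicle secretion gene, had 0.0454 and 7.90 CPM in libraries labelled Ghr deletion, against 32915, 22520 and 58.6 CPM in controls. Of 8 seminal vesicle genes, 6 (75%) were lower in the libraries labelled Ghr deletion without overlap, beside 12.5% of all tested genes. The 8 genes summed to 104999 and 183272 CPM, against 451761, 234412 and 234784 CPM. As a share of all counts, with no TMM scaling, they made up 14.6% and 22.2%, against 37.5%, 15.4% and 25.6%, and the groups overlapped. The summed level of 8 distal luminal prostate genes was 309 and 389 CPM, against 3197, 3327 and 221 CPM. Among those prostate markers Hoxb13 was at 0 counts in Ghr deletion replicate 1 and in control 3, and Pbsn, the gene for probasin, was at 0.0454 and 8.76 CPM, against 11.1, 475 and 0.816 CPM. Control 3 lay nearer to the libraries labelled Ghr deletion than to controls 1 and 2 for Svs1 and for the prostate sum. Its seminal vesicle sum in CPM was about that of control 2, but its share of all counts was higher than that of control 2. The list was not uniform: Svs2 had 67744 and 118601 CPM, against 68572, 47338 and 140510 CPM, and Svs2 and Pate4 overlapped between groups and were highest in control 3.

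No member passed an adjusted p of 0.05 in edgeR's quasi-likelihood test, and neither did any of the 18590 genes (0%), whose smallest adjusted p was 0.0935. The lowest values relative to controls were those of the inhibitory Smads, Smad6 and Smad7, and of the BMP receptor Smad, Smad9. The highest was that of Inhbb, which encodes an activin subunit. At an unadjusted p under 0.05, 4 of 38 members (10.5%) were lower, Smad6, Smad7, Smad9 and Tgfb3, beside 3.1% of all tested genes. Under the same rule 1 of 38 (2.63%), Inhbb, was higher, beside 1.16% of all tested genes. DESeq2 called 0 members in either direction, beside 0.108% of genes called higher and 0.328% called lower.

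The groups did not overlap for 5 higher members (13.2%), Inhba, Inhbb, Tgfbr1, Tgfbr3 and Smad5, beside 10.8% of all tested genes. They did not overlap for 7 lower members (18.4%), Tgfb3, Smad1, Smad9, Smad6, Smad7, Chrd and Ltbp4, beside 12.5% of all tested genes. Of the 38 members, 20 had a log2 fold change above 0 and 18 below 0, with a median of 0.07, beside -0.01 over all tested genes. In bulk tissue, fewer cells of a type and less RNA per cell cannot be told apart. The biological coefficient of variation was 42.7%, and an exact test of 2 against 3 libraries cannot give a two-sided p below 0.2.

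**Figure D1:**
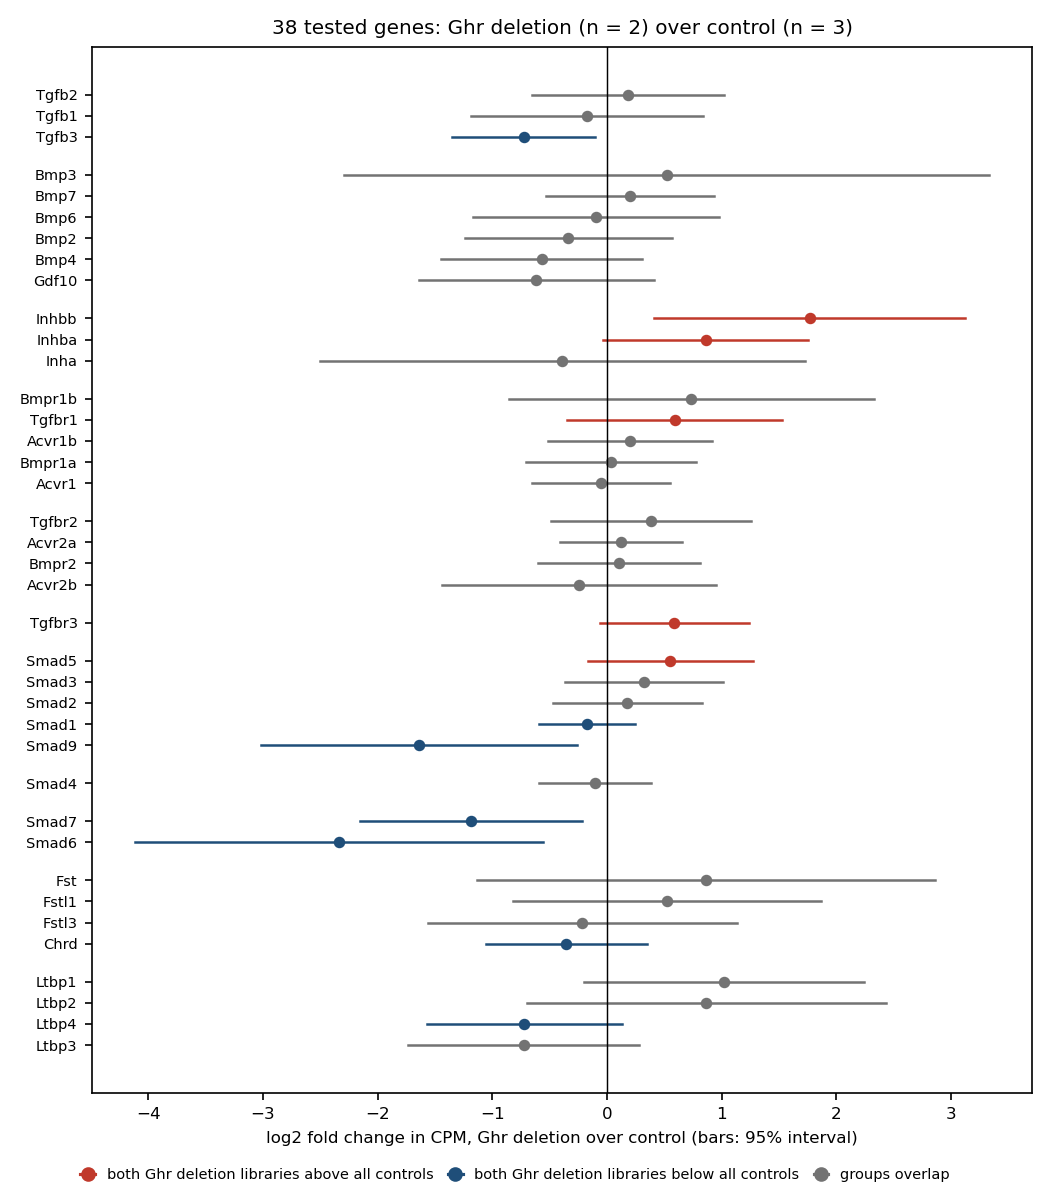
Log2 fold change in CPM of the 38 tested genes, libraries labelled Ghr deletion (n = 2) over control (n = 3), grouped by role, with bars for the 95% interval of edgeR's quasi-likelihood fit. Red marks the 5 genes with both libraries labelled Ghr deletion above all controls and blue the 7 with both below; Smad6 at -2.34 and Inhbb at 1.77 are farthest from 0, and none passed the adjusted threshold.

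Among the TGF-beta ligands, Tgfb3 was the most abundant per length in all 5 libraries. Tgfb3 (GRCm38 chr12:86056745-86079041) had 16.2 and 14.7 CPM in libraries labelled Ghr deletion, against 32.6, 21.9 and 22.4 CPM in controls. Both libraries labelled Ghr deletion lay below every control, and the log2 fold change was -0.73 (SE 0.25, 95% interval -1.35 to -0.11, adjusted p = 0.874 by edgeR's quasi-likelihood test). Its exons share 163 and 257 bases with 2 predicted genes on the opposite strand, Gm37804 and Gm48008, and the strand setting of the counting is not given in the sources used here. Tgfb2 had 16.7 and 17.8 CPM, against 19.3, 9.20 and 17.0 CPM, so the groups overlapped. Tgfb1 had 3.22 and 3.20 CPM, against 2.22, 4.98 and 3.66 CPM, and also overlapped. A share within a library does not depend on how libraries are scaled. By TPM, a measure per length, Tgfb3 made up 42.1% and 35.7% of the 3 TGF-beta ligands in the libraries labelled Ghr deletion, against 62.4%, 54.1% and 47.9% in controls, without overlap.

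None of the 6 tested BMP and GDF ligands stood apart by group. Gdf10, a BMP3-related ligand, had the highest TPM of this role in all 5 libraries and had 18.7 and 13.8 CPM in libraries labelled Ghr deletion, against 38.2, 15.98 and 20.6 CPM in controls. Bmp4, a ligand of the prostate stroma that limits ductal budding, had 6.94 and 4.14 CPM, against 10.6, 7.55 and 6.62 CPM. In both genes control 1 was the highest library and the groups overlapped. Bmp7, another BMP ligand of the developing prostate, had 10.9 and 11.2 CPM, against 7.10, 12.7 and 9.06 CPM. Bmp3, an inhibitory BMP ligand, had 8.92 and 10.6 CPM, against 0.247, 7.04 and 13.0 CPM. Its control values ran from 4 counts in control 1 to 588 counts in control 3, a span wider than any difference between the groups. Bmp2 and Bmp6 overlapped as well, with log2 fold changes of -0.34 and -0.10. Bmp5 had 2 counts in each library labelled Ghr deletion, against 0, 0 and 1 in controls, and Gdf15, a stress-induced ligand, had at most 7 counts in any library; neither was tested.

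Both beta subunits of activin had higher values in the libraries labelled Ghr deletion than in any control. Inhbb encodes the beta B subunit of activin B and inhibin B and lies at GRCm38 chr1:119415465-119422248. It had 9.51 and 5.05 CPM (419 and 200 expected counts), against 2.22, 0.976 and 3.15 CPM (36, 19 and 143 expected counts) in controls. Both libraries labelled Ghr deletion lay above every control, with Ghr deletion replicate 1 the highest. The log2 fold change was 1.77 (SE 0.55, 95% interval 0.41 to 3.12), a 3.40-fold difference (edgeR quasi-likelihood test, adjusted p = 0.874). Inhba, the beta A subunit of activin A, had 3.56 and 2.35 CPM, against 1.67, 1.75 and 1.48 CPM. The groups did not overlap, and the log2 fold change of 0.86 had a 95% interval of -0.03 to 1.75. Inha, the alpha subunit that turns a beta subunit into an inhibin, had 0.613 and 0.808 CPM, against 0.494, 2.00 and 0.331 CPM, with overlap. Of the TPM of the 3 subunits, Inhbb made up 68.8% and 55.0%, against 41.5%, 9.52% and 61.3%, so its share overlapped between groups. The 6 fibroblast markers summed to 3279 and 1521 CPM in libraries labelled Ghr deletion, against 1400, 858 and 2642 CPM in controls. Ghr deletion replicate 1, with the highest sum, was also highest for Inhbb and Inhba. Control 3, with the next highest sum, had the lowest Inhba of any library and less Inhbb than either library labelled Ghr deletion. The 6 adipocyte markers summed to 15.2 and 4.82 CPM, against 2.35, 1.18 and 2.36 CPM. All 6 were higher without overlap, beside 10.8% of all tested genes. Several rest on few reads: Lep had 12 and 22 expected counts, against 0 in each control, and Adipoq 54 and 13, against 0, 2 and 5. Fabp4 and Cfd were the highest of the 6 in Ghr deletion replicate 1, at 6.62 and 4.97 CPM. The part of fibroblasts and adipocytes in the activin subunit values was not tested.

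**Figure D2:**
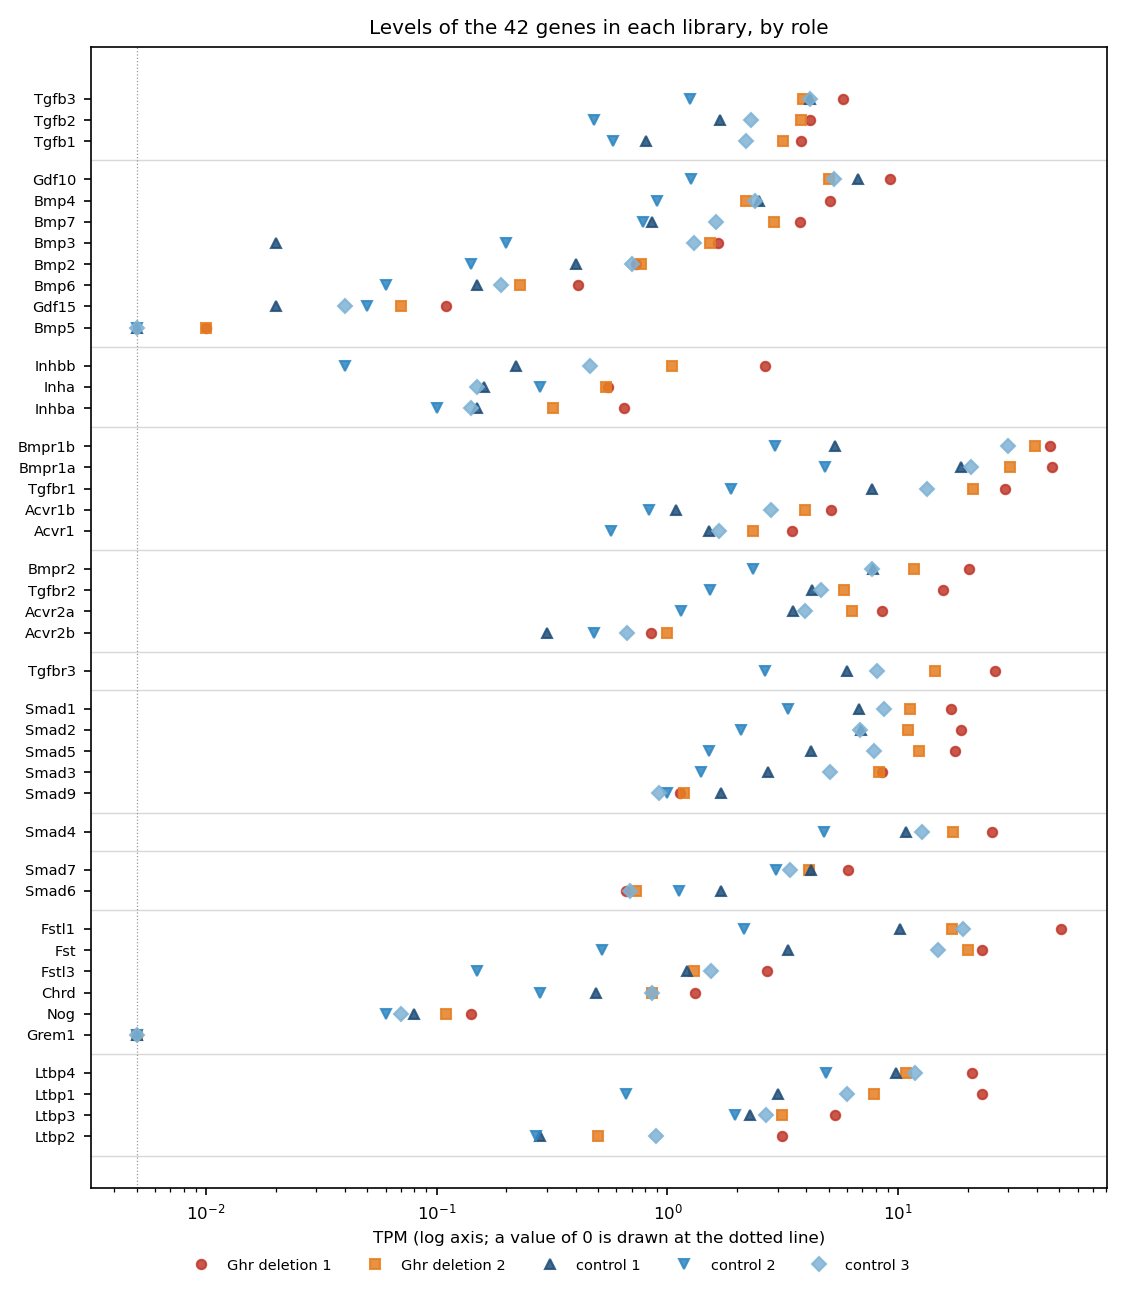
Level of each of the 42 genes in every library as deposited TPM on a log axis, grouped by role, with libraries labelled Ghr deletion (2) and controls (3) marked separately. Levels can be compared between genes of a library on this axis, but the median gene had a higher TPM in the libraries labelled Ghr deletion, so a shift shared by most genes is a shift of scale; values of 0 are drawn at the dotted line.

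The latent TGF-beta binding proteins differed in mix. Ltbp1 and Ltbp4 anchor the latent complex to the matrix. Ltbp1 had 101 and 44.2 CPM in libraries labelled Ghr deletion, against 37.1, 19.7 and 50.6 CPM in controls, so control 3 lay above Ghr deletion replicate 2. Ltbp4 had 66.6 and 36.1 CPM, against 78.8, 107 and 68.4 CPM, with both libraries labelled Ghr deletion below every control by a narrow margin in replicate 1. Their log2 fold changes were 1.02 (95% interval -0.20 to 2.24) and -0.72 (95% interval -1.57 to 0.13). As a share of the TPM of the 4 binding proteins, Ltbp1 made up 44.0% and 35.2% in the libraries labelled Ghr deletion, against 19.5%, 8.52% and 28.0% in controls. Ltbp4 made up 39.9% and 48.6%, against 63.8%, 62.6% and 55.4%. Both shares separated the groups, Ltbp1 higher and Ltbp4 lower in the libraries labelled Ghr deletion. Ltbp2 had 15.8 and 3.86 CPM, against 4.51, 3.70 and 7.87 CPM, and Ltbp3 had 23.6 and 18.6 CPM, against 28.3, 53.9 and 22.8 CPM, both with overlap.

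Of 14 further genes that process or activate latent TGF-beta, 1 was higher and 1 lower at an unadjusted p under 0.05 (7.14% each, beside 1.16% and 3.1% of all tested genes), with a median log2 fold change of -0.07. Itgb6 encodes the beta subunit of the integrin that releases active TGF-beta at epithelial surfaces. Itgb6 had 40.6 and 27.0 CPM in libraries labelled Ghr deletion, against 10.7, 10.4 and 14.8 CPM in controls. Both libraries labelled Ghr deletion were above every control, and control 3 lay near the other controls. The log2 fold change of Itgb6 was 1.49 (SE 0.27), a 2.82-fold difference, with an adjusted p of 0.874 in edgeR's quasi-likelihood test and of 0.00456 in DESeq2. Its partner Itgav had 143 and 118 CPM, against 109, 62.3 and 109 CPM. Furin, the protease that cleaves the TGF-beta precursor, had 30.6 and 25.5 CPM, against 48.9, 72.5 and 36.5 CPM, with both libraries labelled Ghr deletion below every control (log2 fold change -0.91, SE 0.33).

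Of the 4 tested antagonists and follistatins, which act outside the cell, 1 was lower without overlap, Chrd (25%, beside 12.5% of all tested genes). Fst, follistatin, an activin-binding protein, had 43.4 and 51.2 CPM in libraries labelled Ghr deletion, against 17.5, 6.06 and 54.0 CPM in controls. Control 3 held the highest Fst level of all 5 libraries and controls 1 and 2 the lowest. Fstl1, a secreted follistatin-like protein made by stromal cells, had 160 and 72.1 CPM, against 90.2, 37.6 and 114 CPM. Its order over the libraries began with Ghr deletion replicate 1 and control 3, the same 2 libraries that led the summed fibroblast markers. Fstl3, another activin-binding protein, had 3.45 and 2.37 CPM, against 4.81, 1.49 and 3.84 CPM, and its exons share 1157 bases with Prss57 on the opposite strand. Chrd, chordin, a BMP-binding protein, had 3.74 and 3.41 CPM, against 3.89, 4.98 and 4.83 CPM, below every control, narrowly so in replicate 1. Exons of Chrd share 239 bases with Thpo on the opposite strand. Nog, noggin, had 5 to 10 counts per library and Grem1, gremlin, 2 counts in control 2 and 0 elsewhere, so both went untested.

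Among 15 other antagonists, 14 were tested, 2 were lower at an unadjusted p under 0.05 (14.3%, beside 3.1% of all tested genes) and 0 were higher. Nbl1, a BMP antagonist of the DAN family, had 14.8 and 19.2 CPM in libraries labelled Ghr deletion, against 45.2, 40.2 and 23.7 CPM in controls (log2 fold change -1.09, SE 0.33). Chrdl2, a chordin-like BMP-binding protein, had 0.590 and 0.858 CPM, against 4.14, 4.73 and 1.01 CPM. Both genes were lower in each library labelled Ghr deletion than in every control, and in both control 3 was the lowest control.

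Receptor levels overlapped between groups for 8 of the 10 members, and the 2 exceptions were higher in the libraries labelled Ghr deletion, where 10.8% of all tested genes were higher without overlap. Tgfbr1, the type I receptor for TGF-beta, had 132 and 127 CPM, against 94.99, 47.3 and 115 CPM in controls. Tgfbr3, betaglycan, a co-receptor that presents TGF-beta and binds inhibin, had 129 and 94.8 CPM, against 86.0, 57.3 and 80.5 CPM. The log2 fold changes were 0.59 (95% interval -0.35 to 1.53) for Tgfbr1 and 0.59 (95% interval -0.06 to 1.23) for Tgfbr3. Exons of Tgfbr3 share 297 bases with Gm43422 on the same strand.

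Bmpr1b, a type I BMP receptor, had 187 and 220 CPM in libraries labelled Ghr deletion, against 61.8, 63.3 and 241 CPM in controls. Control 3 held the highest Bmpr1b level, and the values of controls 1 and 2 were about alike. Within the 5 type I receptors it made up 35.2% and 40.5% of TPM, against 15.5%, 26.5% and 43.7%. Bmpr1a, the other BMP type I receptor, had 175.3 and 164 CPM, against 210, 115 and 173 CPM. The type II receptor Bmpr2 was the most abundant of its role per length in every library and had 212 and 157 CPM, against 219, 144 and 152 CPM. Tgfbr2, the type II receptor for TGF-beta, had 79.7 and 39.3 CPM, against 57.3, 37.97 and 41.5 CPM, with Ghr deletion replicate 1 alone high. The activin receptors Acvr1b and Acvr2a had log2 fold changes of 0.20 and 0.12, and Acvr1 and Acvr2b of -0.05 and -0.24, all with overlap. Of 11 other receptors and co-receptors 8 were tested, and 0 were below an unadjusted p of 0.05 in edgeR's test. Vasn, vasorin, which traps TGF-beta, had 15.1 and 18.04 CPM, against 21.1, 23.8 and 22.4 CPM, lower without overlap. Eng, the endothelial co-receptor endoglin, had 12.0 and 8.43 CPM, against 11.8, 16.4 and 12.9 CPM, with overlap.

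The inhibitory Smads were the role with the lowest median log2 fold change, -1.76, and in both genes the 2 libraries labelled Ghr deletion were below all 3 controls. Smad6 (GRCm38 chr9:63953076-64022059), which mainly blocks BMP receptors, had 1.61 and 2.40 CPM (71 and 95 expected counts), against 10.9, 16.4 and 3.24 CPM (147 to 320 expected counts) in controls. Control 3 lay far closer to the libraries labelled Ghr deletion than to controls 1 and 2. The log2 fold change of Smad6 was -2.34 (SE 0.72, 95% interval -4.12 to -0.56), 5.06-fold lower (adjusted p = 0.874 in edgeR's test and 0.0984 in DESeq2). Smad7 (GRCm38 chr18:75367529-75395935), which blocks TGF-beta and activin receptors too, had 12.4 and 8.71 CPM, against 26.0, 31.9 and 14.3 CPM. The log2 fold change of Smad7 was -1.19 (SE 0.39, 95% interval -2.16 to -0.22), 2.27-fold lower, and control 3 was again the lowest control. Of the TPM of both inhibitory Smads, Smad6 made up 9.82% and 15.1%, against 28.9%, 27.5% and 16.9%, without overlap. By expected counts, not divided by length, its share was 11.5% and 21.6%, against 29.4%, 34.0% and 18.4%, with overlap.

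Smad9 (GRCm38 chr3:54755582-54801257), a receptor Smad of the BMP branch, had 5.15 and 7.29 CPM in libraries labelled Ghr deletion, against 21.9, 28.3 and 8.09 CPM in controls. Its log2 fold change was -1.64 (SE 0.56, 95% interval -3.01 to -0.26), 3.12-fold lower, and Ghr deletion replicate 2 and control 3 were within 1 CPM of each other. The other BMP receptor Smads had fold changes nearer to 0. Smad5 had 97.0 and 90.5 CPM, against 65.5, 43.8 and 82.5 CPM, higher without overlap. Exons of Smad5 share 100 bases with Gm27301 on the same strand. Smad1 had 38.2 and 34.5 CPM, against 41.0, 41.6 and 40.4 CPM, lower without overlap. The Smad1 log2 fold change was -0.17 and that of Smad5 0.55, and both 95% intervals include 0. As a share of the TPM of the 5 receptor Smads, Smad9 made up 1.79% and 2.68%, against 7.67%, 10.7% and 3.14%, and Smad5 made up 28.0% and 27.9%, against 18.8%, 16.3% and 26.8%. Neither share overlapped between groups. By expected counts the Smad9 share was 2.52% and 3.67%, against 11.9%, 17.6% and 4.19%, again without overlap. Smad2 and Smad3, of the TGF-beta branch, had log2 fold changes of 0.18 and 0.32, and Smad4 of -0.10, all with overlap.

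Smad6, Smad7 and Smad9 had controls 1 and 2 high, control 3 lower and the libraries labelled Ghr deletion lowest. Of the 8 seminal vesicle genes, 6 had the libraries labelled Ghr deletion lowest and control 3 as the lowest control, Svs1, Svs3a, Svs3b, Svs4, Svs5 and Svs6, while Svs2 and Pate4 did not. The order within each group was shared only in part. Svs1 was highest in control 1 and the 3 Smads in control 2. Smad6, Smad9 and Svs1 were lower in Ghr deletion replicate 1, and Smad7 was lower in replicate 2. With controls 1 and 2 left out together, an alternative chosen after the data were seen, the log2 fold changes were -0.69 for Smad6, -0.43 for Smad7, -0.38 for Smad9 and -0.53 for Tgfb3. Only Tgfb3 among members was then lower at an unadjusted p under 0.05, and no member was higher; Inhbb stood at 1.21. The part of seminal vesicle tissue in these values was not tested. The direction also depends on the scale. TPM of the median tested gene was higher in the libraries labelled Ghr deletion, with a log2 fold change of 0.87 on log2(TPM + 1), and Smad7 had 6.06 and 4.11 TPM, against 4.18, 2.96 and 3.40 TPM. Smad9 had 1.13 and 1.18 TPM, against 1.71, 1.00 and 0.920 TPM. Relative to that median, Smad6, Smad7 and Smad9 were at -1.196, -0.44 and -0.88 on log2(TPM + 1), still below the bulk of genes, while the plain TPM of Smad7 averaged higher in the libraries labelled Ghr deletion.

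**Figure D3:**
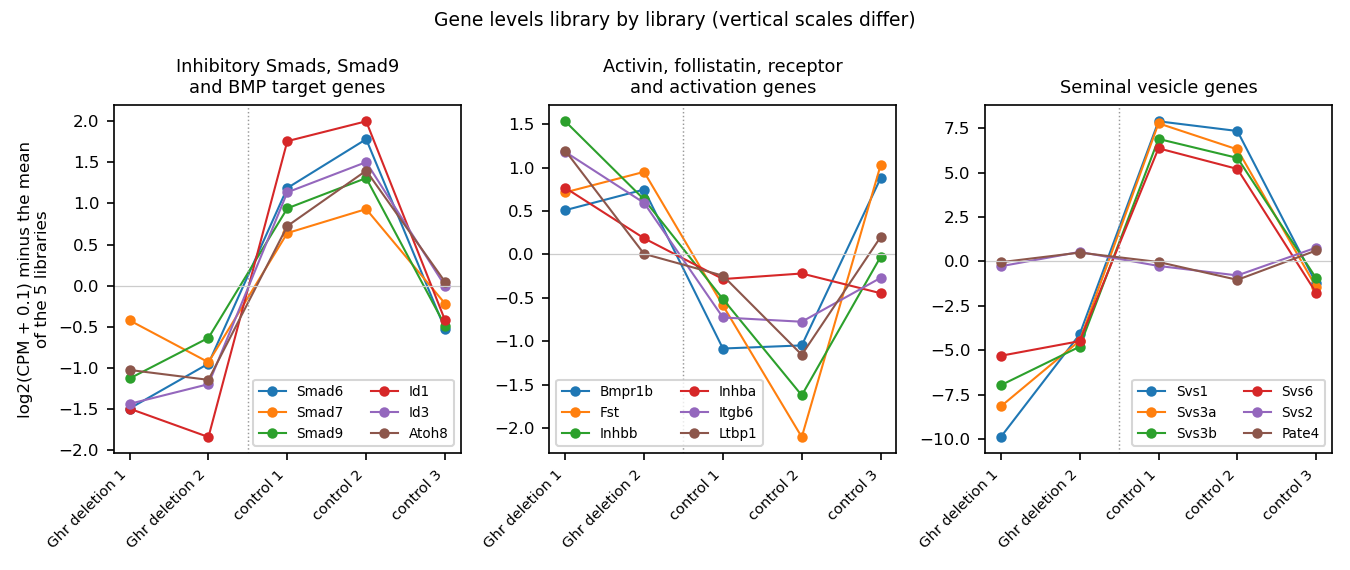
Log2(CPM + 0.1) of each gene minus its mean over the 5 libraries, libraries labelled Ghr deletion left of controls 1 to 3, with 1 line per gene and a vertical scale that differs between the 3 panels. Smad6, Smad7, Smad9, Id1, Id3 and Atoh8 (left) and Svs1, Svs3a, Svs3b and Svs6 (right) have control 3 between the libraries labelled Ghr deletion and controls 1 and 2, Svs2 and Pate4 (right) do not, Bmpr1b and Fst (middle) have it with the libraries labelled Ghr deletion, and Inhbb, Inhba and Itgb6 have all 3 controls below both libraries labelled Ghr deletion.

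Smad6, Smad9 and the target gene Id3 carry short motifs that Smad proteins are known to bind, and their promoter windows are shown as examples of those motifs among genes with an unadjusted p under 0.05. Windows of Gdf7, Atoh8 and Inhbb, with differences of like size or larger, held none of these motifs. The sequences are from RefSeq on GRCm38.p6 and run 5′ to 3′ on the gene's own strand, from 250 bases before the start to 50 after it. Capitals mark the motifs: the Smad box pair GTCTAGAC in Smad6, the GC-rich motif GGCGCC in Smad9, and GTCTG or its reverse complement CAGAC in Id3.
Smad6 (chr9:64022010-64022309, minus strand): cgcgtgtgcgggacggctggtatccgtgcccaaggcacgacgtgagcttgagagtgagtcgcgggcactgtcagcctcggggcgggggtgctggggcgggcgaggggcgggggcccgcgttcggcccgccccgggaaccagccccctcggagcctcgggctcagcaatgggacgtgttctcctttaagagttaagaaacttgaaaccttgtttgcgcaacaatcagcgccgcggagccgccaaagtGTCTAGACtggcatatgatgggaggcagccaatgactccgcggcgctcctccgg
Smad9 (chr3:54755332-54755631, plus strand): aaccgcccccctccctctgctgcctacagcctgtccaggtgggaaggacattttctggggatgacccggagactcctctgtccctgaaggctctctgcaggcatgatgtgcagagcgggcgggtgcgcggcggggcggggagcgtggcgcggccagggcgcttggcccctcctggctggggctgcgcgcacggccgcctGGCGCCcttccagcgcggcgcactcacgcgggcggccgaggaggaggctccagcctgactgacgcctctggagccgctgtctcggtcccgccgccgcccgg
Id3 (chr4:136143572-136143871, plus strand): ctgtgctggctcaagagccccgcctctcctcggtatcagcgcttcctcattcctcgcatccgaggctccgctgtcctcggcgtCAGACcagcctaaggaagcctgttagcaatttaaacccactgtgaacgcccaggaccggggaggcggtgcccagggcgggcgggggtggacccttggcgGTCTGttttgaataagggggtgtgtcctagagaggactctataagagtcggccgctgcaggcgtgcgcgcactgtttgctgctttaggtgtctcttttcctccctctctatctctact
Counted from the start, the first base of the motif was at -4 in Smad6 and at -51 in Smad9, and in Id3 the motifs began at -167 for CAGAC and at -68 for GTCTG. The RefSeq start of Id3 lies 325 bases downstream of the GENCODE start, so by GENCODE both Id3 motifs lie inside the gene, while for Smad6 and Smad9 the starts are the same. Both GGCGCC and the pair GTCTAGAC read the same on both strands, GTCTG was searched on both strands, and no matches overlapped in these windows. A promoter window was found for 32 of the 42 members: GGCGCC was in 9 of these (28.1%) and GTCTG or CAGAC in 16 (50%). Over all 32851 promoters of this length the shares were 11.9% and 49.6%, so the shorter motif was about as common among members as anywhere. GTCTAGAC, searched after the Smad6 window had been read, was in 1 member and in 70 of all promoters (0.213%). The Smad6 window held neither GGCGCC nor GTCTG or CAGAC, so it is shown only for the motif that was added later. A match is a description of the letters and not a bound site.

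Of 18 target genes of Smad signalling, all tested, 3 were lower at an unadjusted p under 0.05, Id1, Id3 and Atoh8 (16.7%), and 0 were higher, beside 3.1% lower and 1.16% higher of all tested genes, with a median log2 fold change of -0.22. Id1, an inhibitor of basic helix-loop-helix factors induced by BMP, had 5.06 and 3.96 CPM in libraries labelled Ghr deletion, against 49.0, 57.9 and 10.8 CPM in controls. Id3, of the same family, had 9.76 and 11.5 CPM, against 58.5, 75.4 and 26.5 CPM. Both libraries labelled Ghr deletion were below every control in each gene, and control 3 was the lowest control. The log2 fold changes were -3.12 (SE 0.76) for Id1 and -2.33 (SE 0.48) for Id3, both at an adjusted p of 0.874 in edgeR's test, and DESeq2 gave adjusted p of 0.00250 for Id1 and 0.00116 for Id3. Id2 and Id4 overlapped between groups, with log2 fold changes of -1.02 and 0.34. Atoh8, a helix-loop-helix factor, had 1.27 and 1.16 CPM, against 4.51, 7.24 and 2.78 CPM, a log2 fold change of -1.99 (SE 0.50). The remaining targets had an unadjusted p of 0.05 or more in edgeR's test. Among them Tgfbi, a matrix protein named for its induction by TGF-beta, had 16.2 and 14.2 CPM, against 11.5, 6.78 and 12.8 CPM, higher without overlap. Junb, an early-response transcription factor, had 1.38 and 1.59 CPM, against 2.28, 9.20 and 2.10 CPM, lower without overlap (log2 fold change -1.60, SE 0.77).

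For the targets, too, controls 1 and 2 set much of the size. Without those controls the log2 fold changes were -1.25 for Id1, -1.31 for Id3 and -1.19 for Atoh8, against the 1 remaining control, while Itgb6 stood at 1.198. Without control 3, Id1 and Id3 passed the adjusted threshold in edgeR's quasi-likelihood test (adjusted p = 0.0425 and 0.0465). Leaving out any other library gave 0 calls among members and listed pathway genes, and leaving out control 3 gave 0 calls among members.

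Across the 6 further lists of 92 pathway genes, 76 were tested and 0 were called by edgeR. At an unadjusted p under 0.05, 1 was higher, Itgb6 (1.32%, beside 1.16% of all tested genes), and 7 were lower, Gdf7, Furin, Chrdl2, Nbl1, Id1, Id3 and Atoh8 (9.21%, beside 3.1%). The median log2 fold change was -0.02. DESeq2 called 1 higher, Itgb6, and 2 lower, Id1 and Id3, beside 0.108% and 0.328% of all tested genes. Among 7 tested of 19 other ligands, Gdf7, a BMP ligand known from seminal vesicle development, had 0.159 and 0.202 CPM, against 2.78, 6.27 and 0.265 CPM; with 7 and 8 counts against 45, 122 and 12, its log2 fold change of -4.07 rests on few reads. Gdf11, an activin-like ligand, had 5.17 and 4.21 CPM, against 2.84, 2.88 and 3.70 CPM. The 16 intracellular regulators had a median log2 fold change of 0.06 and 0 genes below an unadjusted p of 0.05 in edgeR's test. Of these, Tgif1, a co-repressor of Smad2 and Smad3, had 28.1 and 24.4 CPM, against 14.4, 15.1 and 23.0 CPM, higher without overlap (log2 fold change 0.58). Tgif2, a related co-repressor, had 4.27 and 2.80 CPM, against 7.72, 7.76 and 3.53 CPM, with overlap.

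**Figure D4:**
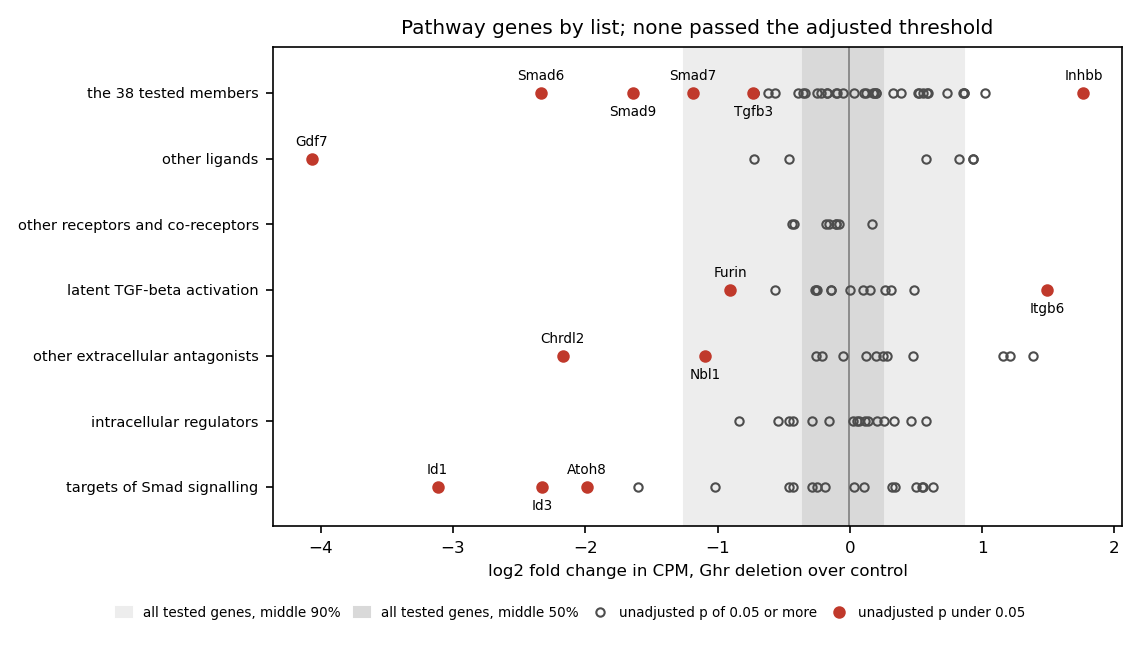
Log2 fold change in CPM, libraries labelled Ghr deletion over control, of the 38 tested members and of the 76 tested genes in 6 further lists, 1 point per gene; shading spans the middle 50% and 90% of all 18590 tested genes. Filled points have an unadjusted p under 0.05, and the lowest named points are Gdf7 (-4.07), Id1 (-3.12), Smad6 (-2.34) and Id3 (-2.33).

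Control 3 was nearer to the mean of the libraries labelled Ghr deletion than to that of controls 1 and 2 for 22 of 38 members (57.9%), beside 12478 of 18590 tested genes (67.1%), by distance on log2(CPM + 0.1). It was nearer to the libraries labelled Ghr deletion for Smad6, Smad7, Smad9, Bmpr1b and Fst, and nearer to the other controls for Tgfb3, Inhbb and Inhba. Endothelial markers summed to 124 and 77.8 CPM in libraries labelled Ghr deletion, against 97.9, 62.6 and 84.0 CPM in controls, and smooth muscle markers to 6313 and 6684 CPM, against 5505, 2230 and 7600 CPM. Neither of these sums separated the groups. Basal epithelium markers did, at 99.5 and 84.3 CPM, against 103.8, 103.6 and 101.8 CPM in controls, by a narrow margin in replicate 1. As a share of all counts they made up 0.0138% and 0.0102%, against 0.00861%, 0.00679% and 0.0111%, with overlap. Of 5 basal markers, 3 (60%) were lower without overlap, beside 12.5% of all tested genes, and 0 were higher. The part of basal cells in the member values was not tested.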

How the data were processed

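Per the labels' protocols, total RNA of frozen dorsolateral prostate went into libraries made with the TruSeq Stranded Total RNA kit. Build GRCm38, STAR 2.5.3a, RSEM 1.3.0 and bcl2fastq 2.20.422 are named in the submitters' processing notes; the sources used here give neither the annotation release nor the strand setting. The authors deposited RSEM gene tables with expected counts, which share a read among the genes it fits, and with TPM, which divides by effective length; per the file headers the effective length is a value per gene and library.

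Titles gave the groups. Expected counts, rounded to whole numbers, were filtered with filterByExpr, scaled by TMM and tested in edgeR 4.0.16 by quasi-likelihood (R 4.3.3), with no term besides group; p-values were adjusted by Benjamini and Hochberg, with a threshold of 0.05, over all 18590 tested genes. CPM uses the TMM-scaled library size, and the floor of 3 counts was 0.0681 and 0.0757 CPM in libraries labelled Ghr deletion, against 0.185, 0.154 and 0.0662 CPM in controls. Standard errors follow from the fold change and the F statistic; 95% intervals use the t distribution. The test was also run on simulated counts with set fold changes. Those counts held no library like control 3 and no mix of tissues, so how the test performs under these was not tested.

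The members and lists were chosen with earlier results of these data known. Values in each library are given for members with an unadjusted p under 0.05 or a DESeq2 call, members whose groups do not overlap with a log2 fold change of at least 1, the 2 with the highest TPM in each role, and the 2 genes with the smallest p in each further list with an average of at least 1 CPM. Others were named after their values were seen. Coordinates are from GENCODE M21 (GRCm38) and promoters from RefSeq (GRCm38.p6). Alternatives were other scalings and filters, offsets from effective lengths, leaving out the 20 most abundant genes, DESeq2 1.42.0, limma 3.58.1 (voom, and trend on TPM), a replicate block and leaving out libraries.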

Additional observations from a re-analysis of the deposited data

How the results depend on the processing

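No gene was called under edgeR's test with RLE, upper-quartile or no composition factors, a CPM filter, offsets from effective lengths, without the 20 most abundant genes, or limma-voom. Other settings moved the count of called genes to 2 without a filter, 81 with DESeq2, 2294 on log2(TPM + 1) and 733 on log2(TPM + 0.1), and to 0 to 48 when 1 library was left out. Members called were 7 on log2(TPM + 1) and 4 on log2(TPM + 0.1). Listed pathway genes called were 3, 7 and 5 with DESeq2, log2(TPM + 1) and log2(TPM + 0.1), and 0 to 2 with 1 library left out. Members lower at an unadjusted p under 0.05 were 1 with library size only, 2 with limma-voom, 0 on either TPM scale, 0 to 5 with 1 library left out and 1 without controls 1 and 2 together. Members higher were 2 with upper-quartile factors, 4 with library size only, 2 without a filter, 2 with limma-voom, 21 and 18 on log2(TPM + 1) and log2(TPM + 0.1), 0 to 5 with 1 library left out and 0 without controls 1 and 2. Over all genes the median log2 fold change was 0.58 with library size only, 0.87 on log2(TPM + 1) and 1.33 on log2(TPM + 0.1). Log2 fold changes of single genes under these settings are given relative to it. The counts of genes and members above are not, so under these settings they include a shift shared by most genes. Libraries with the same replicate number are not stated to be paired, and their deviations from the group means correlated at 0.29 in both pairs. The deviations of the 2 libraries labelled Ghr deletion are mirror images of each other, so the 2 pairs are not independent. A replicate block, with 1 residual degree of freedom, called 1126 genes, 7 members and 12 listed genes, with 9 members higher at an unadjusted p under 0.05. Only controls have a replicate 3, so under this block control 3 adds nothing to the fold changes.

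Turned in direction were Inha (0.23 with limma-voom), Smad1 (0.25), Smad4 (0.30) and Furin (0.0903) on log2(TPM + 1), and, without controls 1 and 2, Inha (1.10), Bmpr1a (-0.0214), Bmpr1b (-0.24), Smad4 (0.011) and Fst (-0.19). With 1 library left out the log2 fold change spanned -0.0752 to 0.39 for Tgfb2, -0.84 to 0.82 for Inha, -0.17 to 0.24 for Bmpr1a, -0.22 to 0.81 for Tgfbr2, -0.13 to 0.32 for Bmpr2, -0.0368 to 0.37 for Smad2, -0.20 to 0.0043 for Smad4 and -0.16 to 0.99 for Fstl1. The cause of these turns was not tested. Over the planned settings Smad6, Smad7, Smad9, Tgfb3, Inhbb, Itgb6, Id1 and Id3 kept their direction. So did Bmp4, Gdf10, Bmpr1b, Tgfbr3, Fst, Ltbp1 and Ltbp4, so this was not particular to the genes named first. On TPM the direction is relative to the median of all genes. Plain TPM of Tgfb3 averaged 4.83 in the libraries labelled Ghr deletion, higher than the 3.17 of controls. With 2 libraries in 1 group, a lone remaining library was assumed to vary like the other group. Few counts limit Bmp5, Gdf15, Nog and Grem1.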
